A study of Mus musculus with 12 samples.

Results

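The genes described here are 10 activity-induced genes of neurons, chosen by symbol: Fos, Fosb, Jun, Junb, Egr1, Egr3, Arc, Npas4, Nr4a1 and Bdnf. Each matched 1 of the 55573 genes in the count table, and all 10 were among the 16820 genes with a mean of at least 10 normalized counts that were tested. The RNA came from primary hippocampal neurons of neonatal C57BL/6 mice, kept for 14 days in culture, and all groups shared this strain and culture time. In RIP-seq, RNA bound to a protein is pulled down with an antibody and sequenced. Here the antibodies were against the endogenous m6A readers YTHDF1, YTHDF2 and YTHDF3, with 3 libraries a group, and 3 Input libraries were made with no antibody. The labels name no stimulation and no genetic change in any group. The methods describe drugs that suppress synaptic activity before harvest of dissociated cultures, and do not say whether the RIP cultures received them. They also describe Ara-C, added to the cultures to limit the growth of glial cells. Per the methods, each replicate's lysate was pooled from culture wells and split among the antibodies with a shared Input. The methods call the replicates biological but do not say whether they were separate dissections, so p-values measure the spread between these libraries. Recovery is relative to Input, and an immunoprecipitation with a control antibody was not analysed here.

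When a neuron is depolarised, calcium entry and kinase signalling act on transcription factors already bound at promoters, and immediate early genes are transcribed without new protein synthesis. Their mRNAs are short-lived, so their level follows recent activity. Fos and Fosb, with Jun and Junb, encode subunits of the AP-1 transcription factor. Egr1 and Egr3 encode zinc-finger factors, Npas4 a neuron-specific basic helix-loop-helix factor and Nr4a1 an orphan nuclear receptor. Arc encodes a protein of synapses and dendrites that takes part in AMPA receptor endocytosis. Bdnf encodes brain-derived neurotrophic factor, a secreted ligand of the TrkB receptor. The YTHDF proteins are cytoplasmic readers that bind mRNA carrying N6-methyladenosine (m6A).

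Total counts ran from 6020072 to 38909592 per library. The 8 neuron markers summed to between 1482 and 3013 CPM (counts scaled to a common library size) in Input, none of the 8 was at 0 in every Input library, and the 5 microglia markers summed to at most 3.97 CPM. The 6 astrocyte markers summed to 297, 1670 and 2741 CPM in Input replicates 1, 2 and 3, so astrocyte RNA was present and differed widely between libraries. The 5 oligodendrocyte lineage markers used summed to between 55.8 and 395 CPM in Input and the 6 markers of endothelial cells and fibroblasts to between 5.18 and 61.9. In bulk RNA, fewer cells of a type and less RNA per cell cannot be told apart.

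Because m6A is placed mostly in a short consensus with GGAC at its core, often near the stop codon, the GGAC nearest the stop codon is shown for 5 members, Jun, Bdnf and Nr4a1 as those recovered most, Fos as the one with the lowest recovery with YTHDF3, and Arc for its dendritic mRNA. Capitals mark GGAC, sequences read 5′ to 3′ along the mRNA and come from GENCODE vM21 transcripts on GRCm38 (mm10).
Jun: tacacaagatGGACtgggttgcga
Bdnf: tctatttattGGACatatccatga
Nr4a1: agatctttatGGACacattgtctt
Fos: gacctagggaGGACcttacctgtt
Arc: gccagtgacaGGACccagcctgaa
The Jun window is at chr4:95050128-95050151 (minus strand), in the 3′ UTR with 128 bases between the last sense codon and the motif. The Bdnf window is at chr2:109724295-109724318 (plus strand), in the 3′ UTR at 155 bases. The Fos window is at chr12:85476559-85476582 (plus strand), in the 3′ UTR at 113 bases. The Nr4a1 window at chr15:101274224-101274247 (plus strand) and the Arc window at chr15:74671185-74671208 (minus strand) lie inside the coding sequence, 12 and 10 bases before its end.

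The letters GGAC were found in 99.6% of the 13299 tested protein-coding genes with a transcript, using the longest basic protein-coding transcript and the sense strand, so their presence sets no gene apart. Their density did vary among the members. Junb held 8.29 and Nr4a1 8.23 per kilobase, at the 97.17 and 96.95 percentiles of those genes, whose median was 4.11. Jun held 5.33 per kilobase and Bdnf 3.52, on either side of the median, and Egr3 was lowest at 2.54. A match describes the letters only and is not a measured m6A site.

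Bdnf carries 2 adenosines in its 3′ UTR that the study changed to guanosine by mutagenesis. The reference sequence around each is shown with the changed base and 2 neighbours on either side in capitals.
Bdnf site 1: aattgataatAAACTgtccctctttcag
Bdnf site 2: caatcttacaGTACTgcaagggccaggt
Counted from 1 at the 5′ end of each window, the change is A13G in both. Site 1 is at chr2:109724463-109724490 and site 2 at chr2:109726498-109726525 (mm10, plus strand). Neither window holds GGAC. The counts used here are per gene and do not resolve these sites. The paper used the Bdnf 3′ UTR as a control reporter, and saw no evidence that its localization to neurites depended on m6A.

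Promoters were read for 7 members with an entry in the RefSeq table (GRCm38.p6), from 250 bases before to 50 after the start. TGACG, the core of the cyclic AMP response element bound by CREB, was searched on both strands (as TGACG or CGTCA). It was found for 6 of the 7 members, Fos, Fosb, Junb, Npas4, Nr4a1 and, in 1 of 7 promoters, Bdnf. It was not found for Jun. Counted by promoter, 20.8% of all 32851 promoters in the table held it, a share not in the same unit as the count of members. Windows with the match in capitals show its surroundings near the start.
Fos: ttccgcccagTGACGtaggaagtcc
Nr4a1: cctctccatgCGTCAcggagcgctt
Bdnf: tgacagctcaCGTCAaggcagcgtg
These lie at chr12:85473814-85473838, chr15:101266796-101266820 and chr2:109692391-109692415, all on the plus strand. A match is a description of the letters and not a bound site.

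Before asking how the genes were recovered, their levels in Input were compared per kilobase of exon. Jun stood highest at 32.6 ± 8.03 CPM per kilobase (SD, n = 3), and its lowest Input library, at 26.0, was above the highest of the next gene, Egr1, at 13.8. Egr1 averaged 10.1 ± 5.89, Egr3 9.27 ± 3.04, Bdnf 6.59 ± 2.62, Fos 6.29 ± 2.43 and Junb 5.54 ± 2.46 CPM per kilobase. Arc averaged 3.74 ± 2.40, Npas4 3.00 ± 2.07, Nr4a1 2.77 ± 1.00 and Fosb 1.18 ± 0.971. From Egr1 down, the Input libraries of each gene overlapped those of the next, so the order below Jun was not resolved. The median tested gene had a level between those of Arc and Junb, since Arc stood at the 47.7 percentile and Junb at the 58.2.

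**Figure D1:**
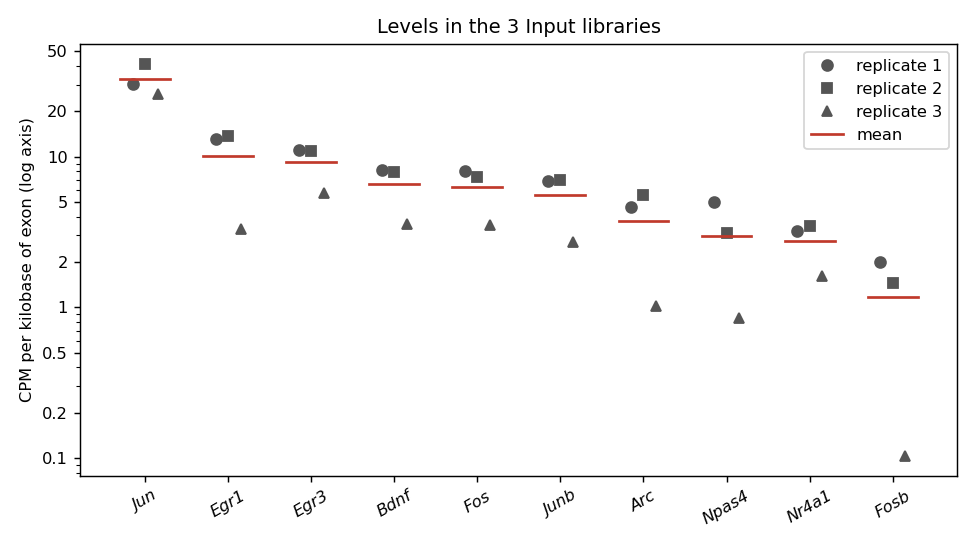
Level of each gene in the Input libraries (CPM per kilobase of exon, log axis), with a symbol for each replicate and a line at the mean of 3. Jun lies above the other members in every library, and replicate 3 is the lowest symbol for all 10 genes.

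The members shared a pattern between replicates. All 10 were lowest in the same library of each group, namely Input replicate 3, YTHDF1 replicate 2, YTHDF2 replicate 2 and YTHDF3 replicate 3. This pattern was noticed after the values were seen, and 12.2% of the 16820 tested genes had it too. Averaged over the 10 genes, the log2 CPM in these libraries lay below the mean of their group, with deviations of -1.09, -1.65, -1.19 and -1.09.

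Fosb varied most. Its Input libraries held 163, 123 and 6 counts, or 12.4, 9.01 and 0.643 CPM. Its YTHDF1 libraries stood at 12.7, 0.569 and 11.97 CPM and its YTHDF3 libraries at 13.7, 8.92 and 0.794 CPM. The highest Input library was thus 19.3 times the lowest, and the groups overlapped throughout.

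Arc stood at 14.2, 17.0 and 3.11 CPM in Input. It stood at 22.8, 4.41 and 39.6 CPM in the YTHDF1 RIP and at 16.1, 2.69 and 42.4 CPM in the YTHDF2 RIP. In the YTHDF3 RIP it stood at 16.5, 12.7 and 2.28 CPM. Each group holds 1 library far below the others, and in the YTHDF2 RIP the highest was 15.8 times the lowest.

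Npas4 behaved similarly, with a highest to lowest ratio of 5.83 in Input and 17.2 in the YTHDF1 RIP. Egr1 ranged from 14.9 to 62.0 CPM in Input, Egr3 from 25.4 to 48.8 and Junb from 6.22 to 16.1. Jun was the steadiest, with a ratio of 1.60 in Input. The SD of log2 CPM within groups ran from 0.66 for Jun to 2.08 for Fosb, against a median of 0.37 over all tested genes, so every member lay at or above the 82.0 percentile for spread between replicates. The deviations of the genes from their group means moved together over the 12 libraries, with Pearson's r between 0.81 and 0.99 (median 0.94) over the 45 pairs of members. These points share their libraries, and r is given as a description.

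**Figure D2:**
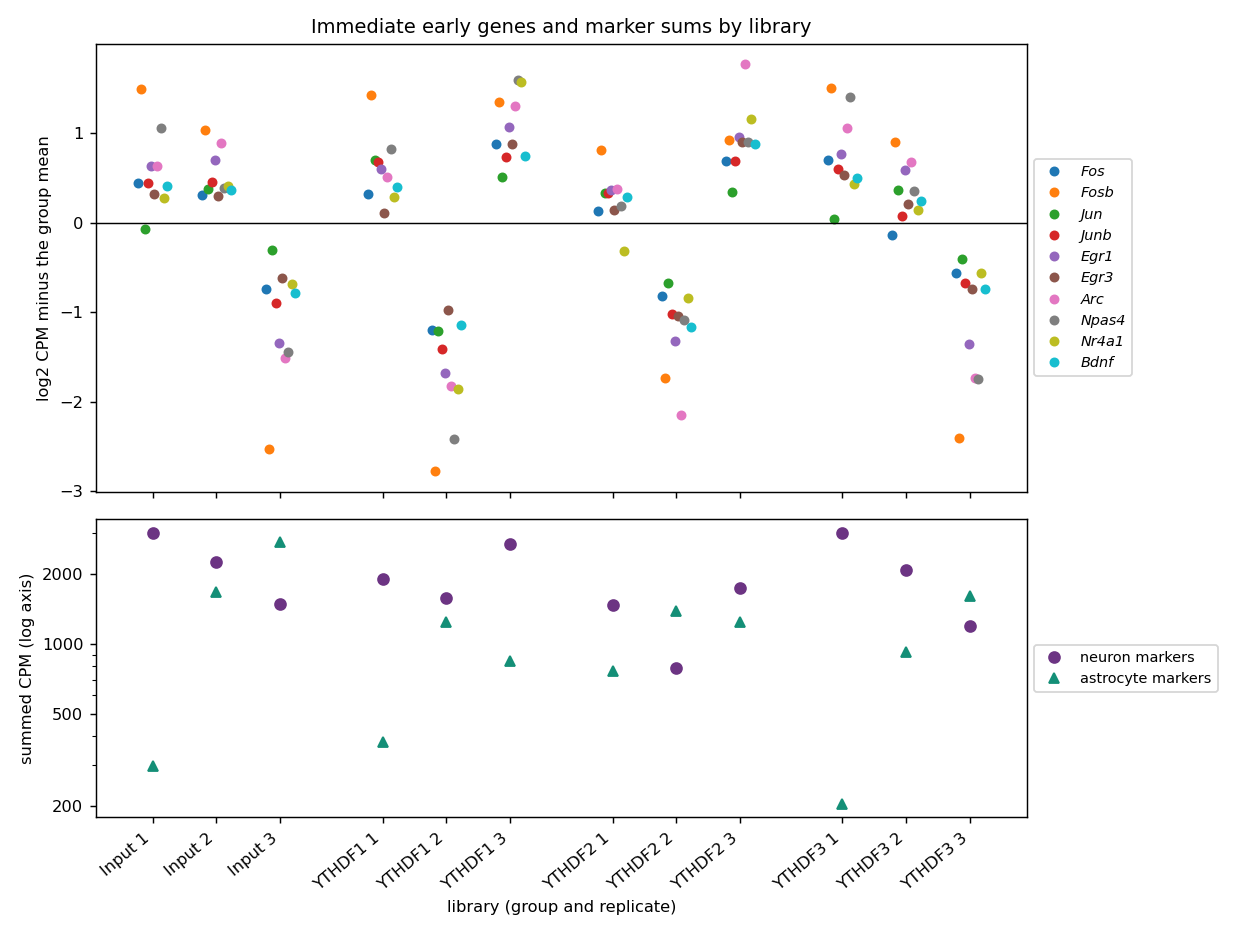
Upper panel, log2 CPM minus the group mean for each member (colours) in each of the 12 libraries. Lower panel, summed CPM (log axis) of the neuron and astrocyte markers. In the 4 libraries where all members lie below 0, the neuron sum is the lowest and the astrocyte sum the highest of the group.

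Marker genes moved with this pattern. Within each group, the library where the members were lowest also had the lowest neuron marker sum, at 1482 CPM in Input replicate 3, 1574 in YTHDF1 replicate 2, 790 in YTHDF2 replicate 2 and 1194 in YTHDF3 replicate 3. The highest neuron sums of the same groups were 3013, 2694, 1749 and 3022 CPM. The same libraries had the highest astrocyte sum of their group, at 2741, 1249, 1382 and 1606 CPM, against lowest sums of 297, 380, 761 and 205. Of the single neuron markers, 6 of 8 were lowest in all 4 of these libraries, and of the astrocyte markers 0 of 6. The part of cell composition in the members' spread was not tested.

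The wider program was read from lists of activity-induced genes. Of 19 tested other activity-induced transcription factor genes, 9 were lowest in the same 4 libraries, among them Fosl2, Nr4a2, Atf3 and Per1. Of 22 effector genes 12 were, among them Nptx2, Ptgs2, Dusp1 and Scg2. Of 20 genes for upstream regulators (CREB and MEF2 factors, kinases and calcineurin subunits) 3 were, and of 10 genes for BDNF receptors and processing 3 were. Of all tested genes, 12.2% were lowest in these libraries, so the count of upstream regulators is near that share. Between libraries of different groups, the deviations over all tested genes correlated at r = 0.812 for Input replicate 3 with YTHDF3 replicate 3, 0.568 with YTHDF2 replicate 2 and 0.471 with YTHDF1 replicate 2.

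The genes whose log2 CPM followed a member most closely over the 12 libraries, among 9627 other protein-coding genes with a mean of at least 100 normalized counts, were taken for 3 members. For Arc these were Galnt18 (r = 0.982) and Cpne6 (r = 0.971). For Bdnf they were Zrsr1 and Grin1 (r = 0.974 for both), the latter encoding an NMDA receptor subunit. For Fos they were Mbp (r = 0.947), a gene of myelin that also gives rise to other transcripts, and Kcng2 (r = 0.945), which encodes a potassium channel subunit.

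The first comparison asked which of the mRNAs were recovered with YTHDF1 above Input. Jun and Bdnf were enriched and the other 8 members did not pass. Enriched means a log2 fold change of at least 0.32, the study's own threshold, and an adjusted p of at most 0.05 (edgeR's quasi-likelihood test, Benjamini-Hochberg over all 16820 genes), and 27.5% of all tested genes were enriched by this rule, so 2 of 10 is near the background. None was depleted, where 26.1% of tested genes were. All 10 fold changes were above 1, with a median log2 fold change of 1.08 against 0.02 over all tested genes. The members moved together between libraries, so these are not 10 independent observations. Fos and Fosb turn negative when libraries are scaled by their size alone (-0.12 and -0.16). That scaling moves the median of all genes to -0.38 for YTHDF1 and to 0.38 for YTHDF3. The 5 oligodendrocyte lineage markers summed to between 367 and 1465 CPM in the YTHDF1 RIP, against 55.8 to 395 in Input. Their sums were 403 to 552 CPM in the YTHDF2 RIP, all above Input, and 56.4 to 568 in the YTHDF3 RIP. With YTHDF1, 1 of these markers, Cspg4, was enriched (2.60 ± 0.98), while Mbp was at -0.12. The part of these markers in the members' values was not tested.

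Bdnf (chr2:109674700-109727007, plus strand) gave the highest fold change of the members. Its CPM was 51.1, 49.5 and 22.2 in Input and 194, 66.7 and 246 in the YTHDF1 RIP. The YTHDF1 libraries lay above every Input library, which 28.0% of all tested genes also showed. The log2 fold change was 2.04 ± 0.59 (SE; edgeR adjusted p = 0.0121).

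Jun (chr4:95049034-95052222, minus strand) stood at 96.8, 132 and 82.8 CPM in Input and at 414, 111 and 364 CPM in the YTHDF1 RIP. The second YTHDF1 library fell inside the Input range. The log2 fold change was 1.51 ± 0.45 (edgeR adjusted p = 0.0141).

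Neither call held with the replicate number as a block in a fit of Input and YTHDF1 alone, where the log2 fold change was 1.83 ± 0.61 for Bdnf and 1.26 ± 0.57 for Jun (edgeR adjusted p = 0.0586 and 0.132). Same-numbered libraries of these groups did not deviate together (r = 0.090, -0.27 and -0.33 over all tested genes), although the methods describe a shared lysate, while Input replicate 3 correlated with YTHDF1 replicate 2 at 0.47. Whether the numbers mark the same lysate in these groups cannot be told from the labels. Both calls also depended on single libraries. Without Input replicate 3, the log2 fold change was 1.66 for Bdnf and 1.29 for Jun, and neither passed (edgeR adjusted p = 0.0556 and 0.0671). Without YTHDF1 replicate 3, they were 1.59 and 1.27 (edgeR adjusted p = 0.0566 and 0.0592), and without YTHDF1 replicate 1, Jun was at 1.19 (edgeR adjusted p = 0.0563) while Bdnf still passed. Without YTHDF1 replicate 2, Junb at 1.74 and Nr4a1 at 1.86 passed as well (edgeR adjusted p = 0.0136 and 0.0181).

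With all libraries, Nr4a1 in the YTHDF1 RIP had a log2 fold change of 1.45 ± 0.73, Junb 1.39 ± 0.60 and Egr1 1.19 ± 0.79 (edgeR adjusted p = 0.114, 0.0698 and 0.223). DESeq2 called Junb as well, at 1.38 (adjusted p = 0.0390). Junb stood at 44.2, 10.3 and 46.2 CPM in the YTHDF1 RIP against 15.9, 16.1 and 6.22 in Input. Arc, Egr3 and Npas4 had log2 fold changes of 0.96 ± 0.99, 0.73 ± 0.54 and 0.54 ± 0.95. Fos and Fosb were nearest to Input at 0.26 ± 0.54 and 0.18 ± 1.15.

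**Figure D3:**
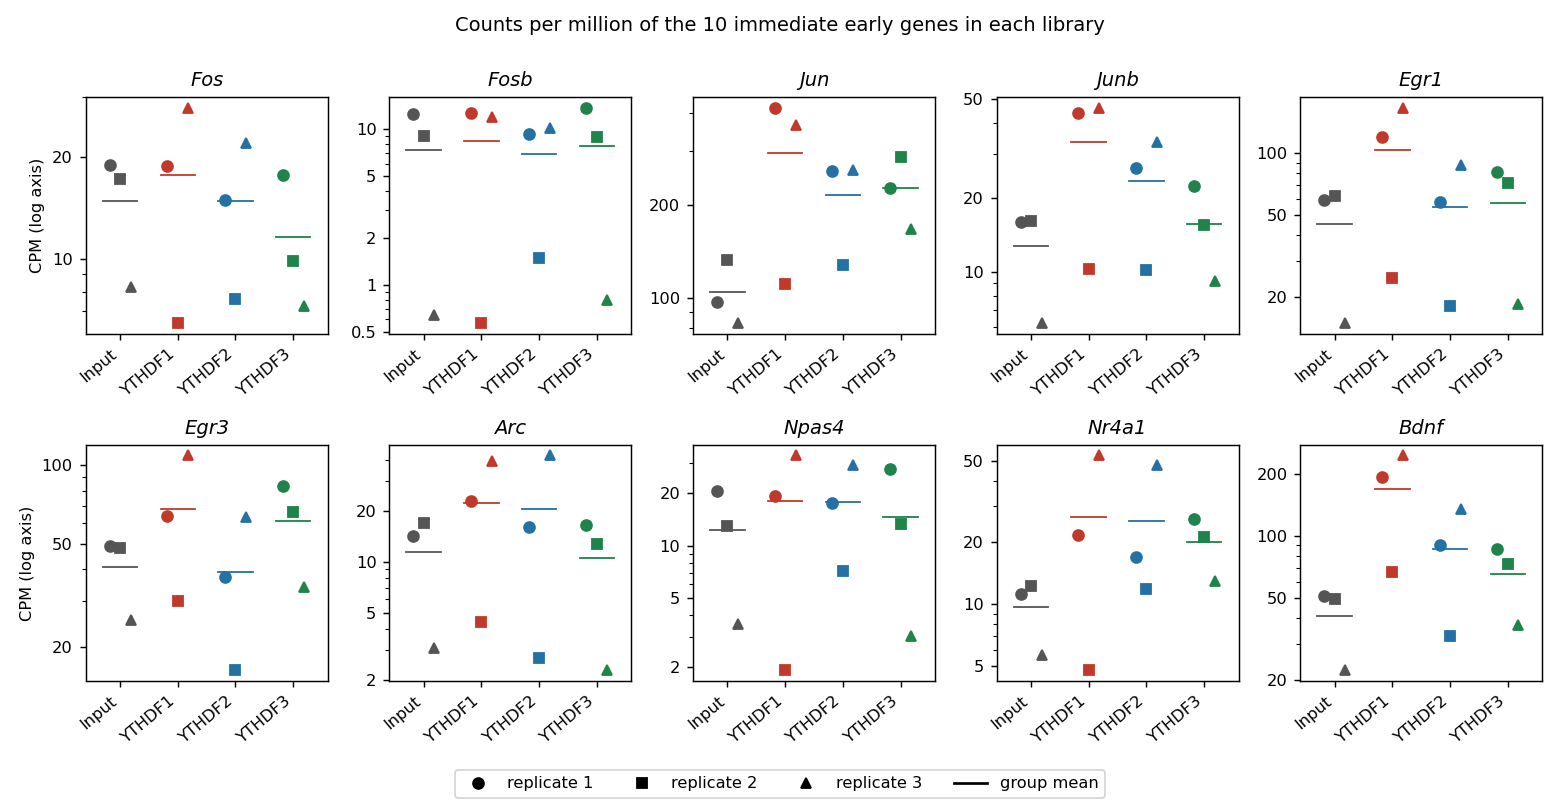
CPM (log axis) of each gene in the 12 libraries, with symbols for replicates 1 to 3 and a line at the group mean. The triangle of Input and YTHDF3 and the square of YTHDF1 and YTHDF2 are the lowest symbols in every panel, and only the Bdnf panel has all YTHDF1 symbols above all Input symbols.

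The second comparison asked the same of YTHDF2. No member was called enriched or depleted, where 16.1% of tested genes were enriched and 19.3% depleted. At an unadjusted p under 0.05 edgeR found 1 member, Jun. Its CPM was 258, 128 and 260 in the YTHDF2 RIP, with the lowest just inside the Input range, and its log2 fold change was 1.05 ± 0.44 (edgeR adjusted p = 0.0860). It passed without YTHDF1 replicate 2 (1.03; edgeR adjusted p = 0.0189).

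Nr4a1 had the highest log2 fold change of the members in the YTHDF2 RIP, 1.39 ± 0.73, with CPM of 17.0, 11.8 and 47.8 against 11.2, 12.2 and 5.68 in Input. Bdnf followed at 1.07 ± 0.57, with CPM of 90.2, 32.7 and 136. Junb, Arc and Npas4 had log2 fold changes of 0.87 ± 0.60, 0.83 ± 0.99 and 0.53 ± 0.96. Egr1 was at 0.27 ± 0.78, and Fos, Egr3 and Fosb were close to 0, at 0.0053, -0.068 and -0.0825. The median over the members was 0.68, against 0.02 for all tested genes. DESeq2 also called 0 of the 10 in this RIP. No member had every YTHDF2 library above every Input library, where 25.5% of tested genes did.

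The third comparison, YTHDF3 against Input, depended on both the pairing of replicates and the libraries in the fit. Same-numbered Input and YTHDF3 libraries deviated together over all tested genes (r = 0.835, 0.539 and 0.812 for replicates 1, 2 and 3). In the fit of all 12 libraries without the pairing, no member was called, where 16.7% of tested genes were enriched and 23.2% depleted. Jun was nearest, with 1.13 ± 0.44 (edgeR adjusted p = 0.0627), and at an unadjusted p under 0.05 it was the only member. Leaving out YTHDF1 replicate 2 brought Jun past the threshold (1.18; edgeR adjusted p = 0.00849), and DESeq2 called Jun too.

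Adding the replicate number as a block to the fit of all 12 libraries changed no call of a member. With the block in a fit of Input and YTHDF3 alone, 6 members were enriched and 1 was depleted, where 36.5% of tested genes were enriched and 32.3% depleted. The enriched genes were Jun (1.18 ± 0.093), Nr4a1 (1.099 ± 0.12), Bdnf (0.73 ± 0.10), Egr3 (0.61 ± 0.10), Egr1 (0.37 ± 0.10) and Junb (0.34 ± 0.13) on the log2 scale. Fos was depleted, at -0.324 ± 0.13 (edgeR adjusted p = 0.0304), barely past the threshold of 0.322. Fosb, Arc and Npas4 did not pass, at 0.10 ± 0.15, -0.12 ± 0.14 and 0.20 ± 0.13. The same 2 groups without the block gave calls for Jun and Nr4a1 alone, where 22.2% of tested genes were enriched. Both of these fits used TMM factors, and neither was repeated with another scaling, a correction for gene length or a library left out. In the fit of all 12 libraries, that correction put Fos at 0.076 with YTHDF3. Scaling by library size alone moved the median of all genes there to 0.38.

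The ratios of same-numbered libraries show what the pairing measures. Jun stood at 228, 287 and 167 CPM in the YTHDF3 RIP, which was 2.35, 2.17 and 2.02 times the Input of the same number. Nr4a1 stood at 26.0, 21.3 and 13.03 CPM, or 2.32, 1.74 and 2.29 times its Input. For both genes the YTHDF3 libraries lay above every Input library, which 26.8% of tested genes also showed.

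Bdnf stood at 86.7, 72.6 and 36.8 CPM in the YTHDF3 RIP, or 1.70, 1.47 and 1.66 times its Input. Although its groups overlapped, each pair moved the same way. Fos stood at 18.9, 17.2 and 8.26 CPM in Input and at 17.7, 9.85 and 7.28 in the YTHDF3 RIP. Its ratios of 0.94, 0.57 and 0.88 were all below 1, with the lowest in replicate 2. Arc had ratios of 1.16, 0.75 and 0.73, which did not share a direction. Neither did those of Junb, at 1.40, 0.96 and 1.47, although the paired fit called it enriched.

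**Figure D4:**
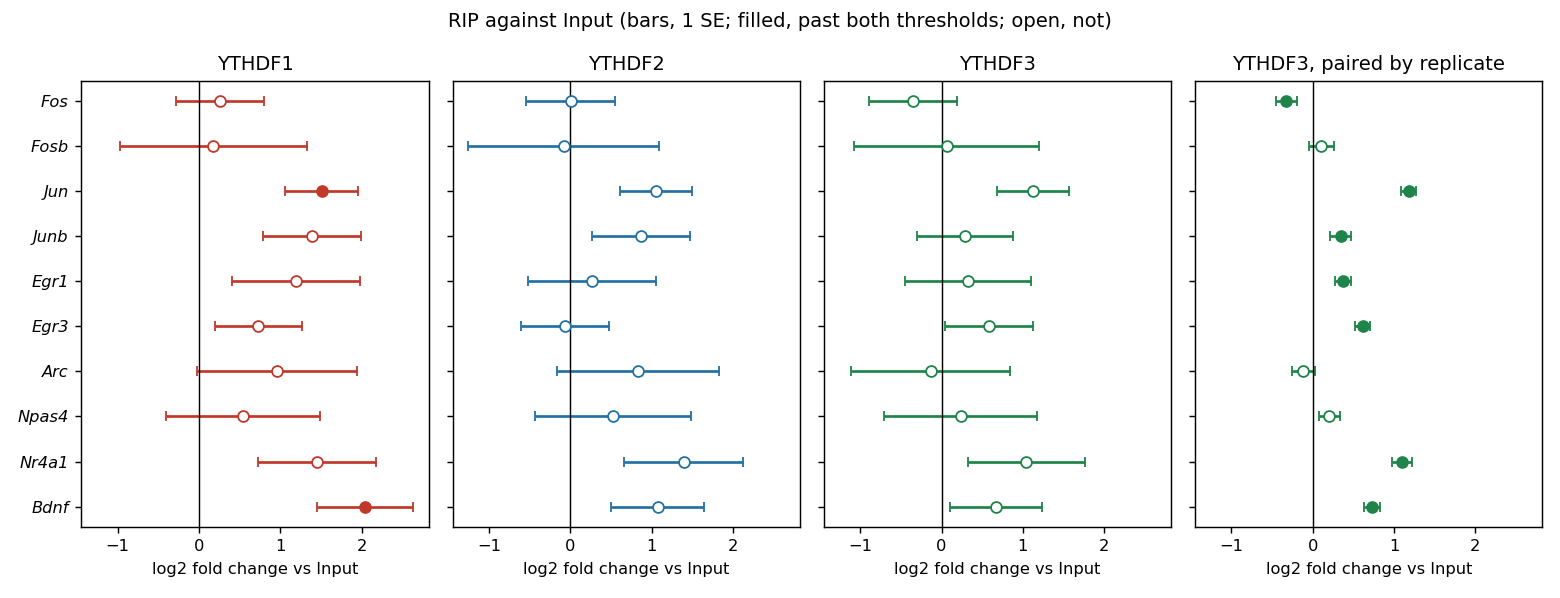
Log2 fold change of each member against Input, with bars of 1 SE, for the YTHDF1, YTHDF2 and YTHDF3 RIPs in the fit of all 12 libraries. At right, YTHDF3 in a fit of Input and YTHDF3 alone with the replicates paired. Filled symbols passed both thresholds, which Jun and Bdnf did for YTHDF1 and 7 members did in the paired fit.

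A gene called in a single RIP need not differ between the proteins, and the RIPs were therefore compared directly. No member differed at 2-fold in any of the pairs of RIPs, where 17.6%, 14.6% and 5.14% of tested genes did (YTHDF1 against YTHDF2, YTHDF1 against YTHDF3 and YTHDF2 against YTHDF3). No member passed the test among the 3 RIPs either, which 32.8% of tested genes passed. The nearest was Bdnf, whose log2 difference of YTHDF1 over YTHDF3 was 1.37 ± 0.57 (edgeR unadjusted p = 0.0350, adjusted p = 0.111). It was the only member under an unadjusted p of 0.05 in these tests, and DESeq2 called 0 members in them as well. Junb came next, with YTHDF1 over YTHDF3 at 1.101 ± 0.59 (edgeR adjusted p = 0.208). For Jun the RIPs lay close, with log2 differences of 0.46 ± 0.44, 0.38 ± 0.44 and -0.076 ± 0.44 in the order of pairs above. The spread within RIPs was wide enough that these tests do not show equal recovery.

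Since the members rose and fell together between libraries, each was also set against the mean log2 CPM of the other 9 in the same library, a description chosen after the values were seen. Bdnf stood 1.21 ± 0.29 above the other members in Input (SD, n = 3) and 2.45 ± 0.50 above them in the YTHDF1 RIP, with no overlap. In the YTHDF2 RIP it stood 1.67 ± 0.043 above them, again with no overlap. Set against the members' mean in this way, 337 of the 16820 tested genes lay above Input in every YTHDF1 library and 1408 lay below. With YTHDF2, 94 lay above and 2121 below. The members' median log2 fold change was 1.08 with YTHDF1 and 0.68 with YTHDF2, against 0.02 for all tested genes. The reference itself therefore rose, and few genes could lie above it.

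Egr1 was also higher relative to the others in the YTHDF1 RIP, at 1.46 ± 0.025 against 1.20 ± 0.25 in Input. Fos was lower, at -1.19 ± 0.43 against -0.41 ± 0.33. Egr3 was lower in the YTHDF2 RIP, at 0.42 ± 0.15 against 1.24 ± 0.45. Thus 3 members stood apart from their Input libraries with YTHDF1, 2 with YTHDF2 and 0 with YTHDF3, where 10.4%, 13.2% and 16.1% of tested genes did in either direction. The exact permutation test of 3 against 3 libraries cannot go below p = 0.10, so none is given.

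The other genes of the activity program were counted by list, with no test of a list. Of all tested genes, 27.5%, 16.1% and 16.7% were enriched with YTHDF1, YTHDF2 and YTHDF3, and 26.1%, 19.3% and 23.2% were depleted. The counts of this and the following lists are to be read against these shares, and several lie near them. Of 19 tested other activity-induced transcription factor genes, 7 were enriched and 0 depleted in the YTHDF1 RIP, with a median log2 fold change of 0.94. In the YTHDF2 RIP 4 were enriched and 1 depleted, and in the YTHDF3 RIP 3 were enriched and 0 depleted. Ier5, an immediate early response gene, was enriched in all 3 RIPs, at 1.89 ± 0.40, 1.53 ± 0.40 and 1.23 ± 0.40 log2. Its Input level was 17.5 ± 4.34 CPM and its YTHDF1 level 64.9 ± 37.9 CPM. Egr2, a paralog of Egr1 and Egr3, was also enriched in all 3, at 2.002 ± 0.38, 1.245 ± 0.39 and 1.17 ± 0.38. Fosl2, an AP-1 subunit gene, was enriched with YTHDF1 (1.86 ± 0.40) and YTHDF2 (1.45 ± 0.39). Klf6, a zinc-finger factor gene, was depleted from the YTHDF2 RIP at -0.66 ± 0.19.

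Of the 22 effector genes, 9 were enriched and 1 depleted with YTHDF1, with a median of 0.89. With YTHDF2 4 were enriched and 3 depleted, and with YTHDF3 1 and 2. Sik1, a salt-inducible kinase gene, rose most, from 17.1 ± 1.57 CPM in Input to 117 ± 9.34 in the YTHDF1 RIP (2.77 ± 0.19 log2), with little spread between replicates, and was enriched with YTHDF2 too (0.55 ± 0.18). Inhba, the activin A subunit gene, rose from 4.75 ± 1.32 to 22.9 ± 9.03 CPM (2.27 ± 0.35). Rheb, a small GTPase gene upstream of mTORC1, was depleted in all 3 RIPs, at -1.18 ± 0.22, -0.68 ± 0.21 and -1.03 ± 0.21. Nrn1, which encodes neuritin, was depleted with YTHDF2 and YTHDF3, at -1.98 ± 0.61 and -2.25 ± 0.61, and Rgs2, a G protein regulator gene, with YTHDF2 at -1.40 ± 0.47. Gadd45g was enriched with YTHDF2 at 0.89 ± 0.29, and Fbxo33 with YTHDF1 and YTHDF2 at 1.52 ± 0.26 and 0.75 ± 0.26.

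Among the 20 genes of upstream regulators, 7 were enriched and 2 depleted with YTHDF1, 6 and 5 with YTHDF2, and 5 and 1 with YTHDF3. Over the RIPs these make 18 enriched and 8 depleted calls, which turned to 11 and 15 under a correction for gene length. Crebbp, the CREB-binding acetyltransferase gene, stood at 184 ± 11.9 CPM in Input and 3268 ± 309 CPM in the YTHDF1 RIP, a log2 fold change of 4.15 ± 0.20. With YTHDF2 and YTHDF3 it was at 1.19 ± 0.17 and 1.42 ± 0.18. Its paralog Ep300 was enriched in all 3 RIPs, at 2.01 ± 0.20, 1.19 ± 0.19 and 1.248 ± 0.19. Elk4, a partner of serum response factor, was enriched with YTHDF1 at 2.11 ± 0.28, while Elk1 was depleted at -0.85 ± 0.22. Mapk3, which encodes the kinase ERK1, was depleted in all 3 RIPs, at -0.69 ± 0.25, -1.69 ± 0.25 and -1.50 ± 0.25, and Ppp3cb, a calcineurin subunit gene, with YTHDF2 at -1.09 ± 0.25.

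Of 10 genes for receptors, adaptors and proteases of BDNF, 5 were enriched with YTHDF1, 2 with YTHDF2 and 1 with YTHDF3, and none was depleted in the edgeR fit of all libraries. Ntrk2, which encodes TrkB, rose from 361 ± 84.8 CPM in Input to 1230 ± 385 CPM in the YTHDF1 RIP (1.77 ± 0.28). Frs2, an adaptor of TrkB, was enriched in all 3 RIPs, at 0.79 ± 0.16, 0.45 ± 0.16 and 0.59 ± 0.16, and Shc3, another adaptor gene, with YTHDF1 and YTHDF2 at 1.19 ± 0.33 and 1.14 ± 0.33. TrkB is also made by astrocytes in a truncated form, and the astrocyte marker sums given above differed between libraries; their part in the Ntrk2 value was not tested.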

How the data were processed

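RIP-seq and Input libraries of cultured mouse hippocampal neurons were compared, 3 per group. Per the labels and methods, the authors built strand-specific libraries carrying molecular identifiers from total RNA, processed reads with UMI-tools 1.1.1, cutadapt 3.4 and STAR 2.7.7a against mm10, and deposited counts per gene from featureCounts 2.0.1, in which reads matching several genes or places were counted for each, so shared reads can be counted more than once. The deposited count table is raw and whole-numbered. The authors' DESeq2 tables hold their fold changes and p-values, which were not used; symbols and gene types were read from 1 of them.

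Counts were tested with edgeR 4.0.16 in R 4.3.3 (quasi-likelihood F test, TMM factors, 1 coefficient a group, 12 libraries sharing 1 estimate of spread), after a filter at a mean of 10 median-ratio normalized counts and with Benjamini-Hochberg adjustment over all genes tested. A gene was called against Input at a log2 fold change of 0.32 and between RIPs at 2-fold, as in the study's methods, at an adjusted p of 0.05. The SE is the log2 fold change over the square root of F. CPM used TMM library sizes. The steps were tested on simulated data in which every gene had the same spread and libraries varied independently. The members spread more widely and moved together between libraries, so the simulation does not show how the steps perform for them. The members and lists were chosen with earlier results of these data known. All 10 members were named; from each wider list and RIP, the 2 highest and 2 lowest called genes whose groups did not overlap and whose mean was 100 normalized counts or more.

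Replicate numbers come from the titles. They were taken to pair groups where the deviations of all 3 same-numbered libraries correlated above 0.1, which held for Input with YTHDF3 alone (r = 0.835, 0.539 and 0.812). Whether the numbers of YTHDF1 and YTHDF2 libraries match those of Input could not be settled, so blocked values for these RIPs rest on the numbers as labelled. DESeq2 1.42.0, other scalings and filters, a replicate block, a loess length correction of span 0.3 and leaving out each library were alternatives. No member shares same-strand exons with another gene; Junos, Prdx2 and Gm45346 overlap Jun, Junb and Bdnf on the opposite strand, and counting was stranded. Member counts ran from 6 to 10103 per library, and the lowest, those of Fosb, carry a large counting error. One marker list, and 1 marker of another list, are not reported here.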

Additional observations from a re-analysis of the deposited data

Results flagged for a closer look

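No member was among the results listed here. Of the genes named from the wider lists, 11 differed in recovery among the 3 RIPs by the edgeR quasi-likelihood test of the contrasts among them, as did 32.8% of all tested genes. The adjusted p was 2.49e-06 for Crebbp, 7.90e-06 for Sik1, 0.000178 for Elk4 and 0.000279 for Inhba. It was 0.00401 for Elk1, 0.00457 for Ntrk2, 0.00846 for Ep300 and 0.00919 for Klf6. It was 0.0155 for Ppp3cb, 0.0168 for Mapk3 and 0.0238 for Fbxo33. No group had the 4 libraries needed to test for an outlying sample.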

How the results depend on the processing

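The members had from 6 to 10103 counts in a library, and Fosb had 6, 8 and 10 in its lowest Input, YTHDF1 and YTHDF2 libraries, where counting error is large. For the count of members enriched with YTHDF1 (2), leaving out a library gave 0 to 4, no filter on low counts 6, the replicate block with the length correction 1 and the replicate block with Input and YTHDF1 alone 0. For YTHDF2 (0), leaving out a library gave 0 to 1, no filter 3 and Input with YTHDF2 alone 1. For YTHDF3 (0), leaving out a library gave 0 to 1, DESeq2, library size alone, the length correction and the replicate block with the length correction 1 each, no filter 3, Input with YTHDF3 alone 2 and the replicate block on those groups 6, with 1 depleted. Without a filter, 1 member differed in the YTHDF1 RIP from that of YTHDF2, 1 from that of YTHDF3, and 5 among the RIPs. The cause was not tested.

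The replicate block over all 12 libraries changed no call of a member. No pair of groups other than Input and YTHDF3 met the pairing criterion; the nearest was YTHDF1 with YTHDF2 (r = 0.070, 0.553 and 0.361), and every Input library correlated best with the YTHDF3 library of its own number. Input replicate 3 correlated with replicate 2 of YTHDF1 and YTHDF2 (0.47 and 0.57) and negatively with their replicate 3 (-0.33 and -0.32).

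Log2 fold changes of uncalled members changed sign in 21 other fits. In the YTHDF1 RIP, Fos was at -0.12 by library size alone and Fosb at -0.16; Fosb was at -0.26 with the length correction, -0.22 with the block added and -0.061 with the block on Input and YTHDF1 alone, where Npas4 was at -0.023. In the YTHDF2 RIP, Fos was at -0.013 with DESeq2, -0.012 with its size factors in edgeR, -0.061 with TMM over protein-coding genes, -0.10 with no filter, -0.0034 at a minimum mean of 50, -0.12 with the replicate block and -0.042 with the block on Input and YTHDF2 alone, where Fosb was at 0.050. In the YTHDF3 RIP with the length correction, Fos was at 0.076, Fosb at -0.22 and Arc at 0.12, with the block added 0.0048, -0.24 and 0.067, and Arc was at 0.16 by library size alone. 

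Leaving out a library also turned the sign of some. The ranges for YTHDF1 were -0.32 to 0.58 for Fos, -0.43 to 0.76 for Fosb and -0.33 to 1.12 for Npas4. For YTHDF2 they were -0.40 to 0.31 for Fos, -0.64 to 0.51 for Fosb, -0.26 to 0.68 for Egr1, -0.61 to 0.30 for Egr3, -0.29 to 1.35 for Arc and -0.0077 to 1.105 for Npas4. For YTHDF3 they were -0.62 to 0.65 for Fosb, -0.057 to 0.57 for Junb, -0.054 to 0.75 for Egr1, -0.62 to 0.35 for Arc and -0.61 to 0.81 for Npas4, and for Bdnf in YTHDF2 over YTHDF3 -0.087 to 0.79.

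Over the 3 RIPs, the upstream regulators had 18 enriched and 8 depleted calls, with 11 and 15 under the length correction and 13 depleted by library size alone. The BDNF list had 8 and 0, with 3 and 2 under the length correction and 1 depleted by library size alone, and the transcription factor list had 1 depleted call, with 2 by DESeq2 and by the length correction. By library size alone, 3073 genes were enriched and 6139 depleted with YTHDF1 (4624 and 4386 with TMM) and 4821 and 2996 with YTHDF3 (2812 and 3906).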
